A study of Mus musculus with 12 samples.

Results

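The genes described here are the 32 genes of glycolysis and pyruvate handling, taken by symbol from the 43279 genes of a normalised count table of mouse hematopoietic stem cell RNA. They comprise 2 glucose transporters, 3 hexokinases, 8 genes of the upper steps of glycolysis, 7 genes of the lower steps, 4 genes of lactate production and export, 3 pyruvate dehydrogenase kinases, and 5 genes of the mitochondrial pyruvate carrier and the pyruvate dehydrogenase complex. The table compares adult naive C57BL/6 mice (WT, 6 mice) with adult naive Osmr-/- mice (5 mice), in which the gene for a subunit of the oncostatin M receptor is knocked out; the labels give no treatment, and no age or sex of single mice. From each mouse 1000 bone marrow cells of the gate Lin- KIT+ SCA-1+ FLT3- CD48- were sorted straight into lysis buffer, and their polyA+ RNA was made into a library. The number of cells was therefore equal, but the cells can differ in kind and in RNA content, and fewer cells of a type and less RNA per cell cannot be told apart in these values. An Osmr-/- sample with the label number 4 was not analysed here.

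Glycolysis breaks glucose down to pyruvate in the cytosol. Lactate dehydrogenase then turns pyruvate into lactate, which monocarboxylate transporters carry out of the cell, or the mitochondrial pyruvate carrier takes it to the pyruvate dehydrogenase complex, which makes acetyl-CoA for the citric acid cycle. Pyruvate dehydrogenase kinases switch that complex off by phosphorylation. Quiescent hematopoietic stem cells are known for a strong reliance on glycolysis, and for pyruvate dehydrogenase kinase activity and the transcription factors HIF1A and MEIS1 as supports of it.

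In the Osmr-/- libraries the transcripts of 6 enzymes of the glycolytic trunk and of lactate production (Gpi1, Aldoa, Tpi1, Eno1, Ldha and Ldhb) were on average 1.50 to 2.68-fold below WT (from the log2 fit), whereas the lactate exporter gene Slc16a1 and the pyruvate dehydrogenase gene Dlat were 1.62-fold and 1.91-fold above it. Of the 32 genes, 30 had at least 10 normalised counts in at least 5 libraries and were tested. With limma on log2(normalised count + 1), 0 of the 30 passed an adjusted p of 0.05, at which 0.0225% of the 13358 genes tested passed in either direction (0.015% lower and 0.00749% higher). At an unadjusted p of 0.05, 8 of the 30 were lower and 2 were higher in Osmr-/-, against a background of 10.5% lower and 7.5% higher over all genes tested. Together these are 33.3% of the 30 genes, against 18% of all genes. The log2 difference (Osmr-/- minus WT) was below 0 for 18 of the 30, or 60%, against 53.2% of all genes, and its median was -0.31 against -0.05. The number lower was 5 without WT replicate 1 (8.49% of all genes), without WT replicate 2 (8.02%) or without Osmr-/- replicate 3 (8.43%), and the number higher was 4 without WT replicate 6 (8.94%).

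DESeq2, which models the reads, called some of these genes. In the authors' deposited table, made with DESeq2, 3 of the 30 genes were lower in Osmr-/- at an adjusted p under 0.05, against 2.79% of its genes, and 1 was higher, against 1.67%. The 3 lower genes in the authors' deposited table were Eno1 (log2 difference -1.36, adjusted p = 0.0054), Aldoa (-0.95, adjusted p = 0.0149) and Ldha (-0.92, adjusted p = 0.0243), and the higher gene was Slc16a1 (0.68, adjusted p = 0.0347). DESeq2 on the whole reads recovered from the normalised counts called Eno1, Aldoa, Ldha and Ldhb lower, 4 of the 29 given an adjusted p, against 3.15% of all genes given 1, and 0 higher, against 1.39%. The edgeR quasi-likelihood test on the same reads called 0 of the 30 in either direction (0.00749% of all genes each way), with 8 lower and 2 higher at an unadjusted p of 0.05, against 8.77% and 6.66%. The Eno1 log2 difference was -1.42 with limma and -1.60 with DESeq2 on the recovered reads, so the call differed more than the size. In a single simulated data set of 13358 genes, equal numbers of genes were set to change 4-fold and 2-fold. DESeq2 called 73 of those at 4-fold and 23 of those at 2-fold, and made 22 false calls beside them. The limma calls were 55 and 7, with 2 false calls, and those of edgeR were 60 and 7, with 3. False calls were thus a larger part of the calls by DESeq2 than of those by limma or edgeR. The authors' own DESeq2 run was not simulated.

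**Figure D1:**
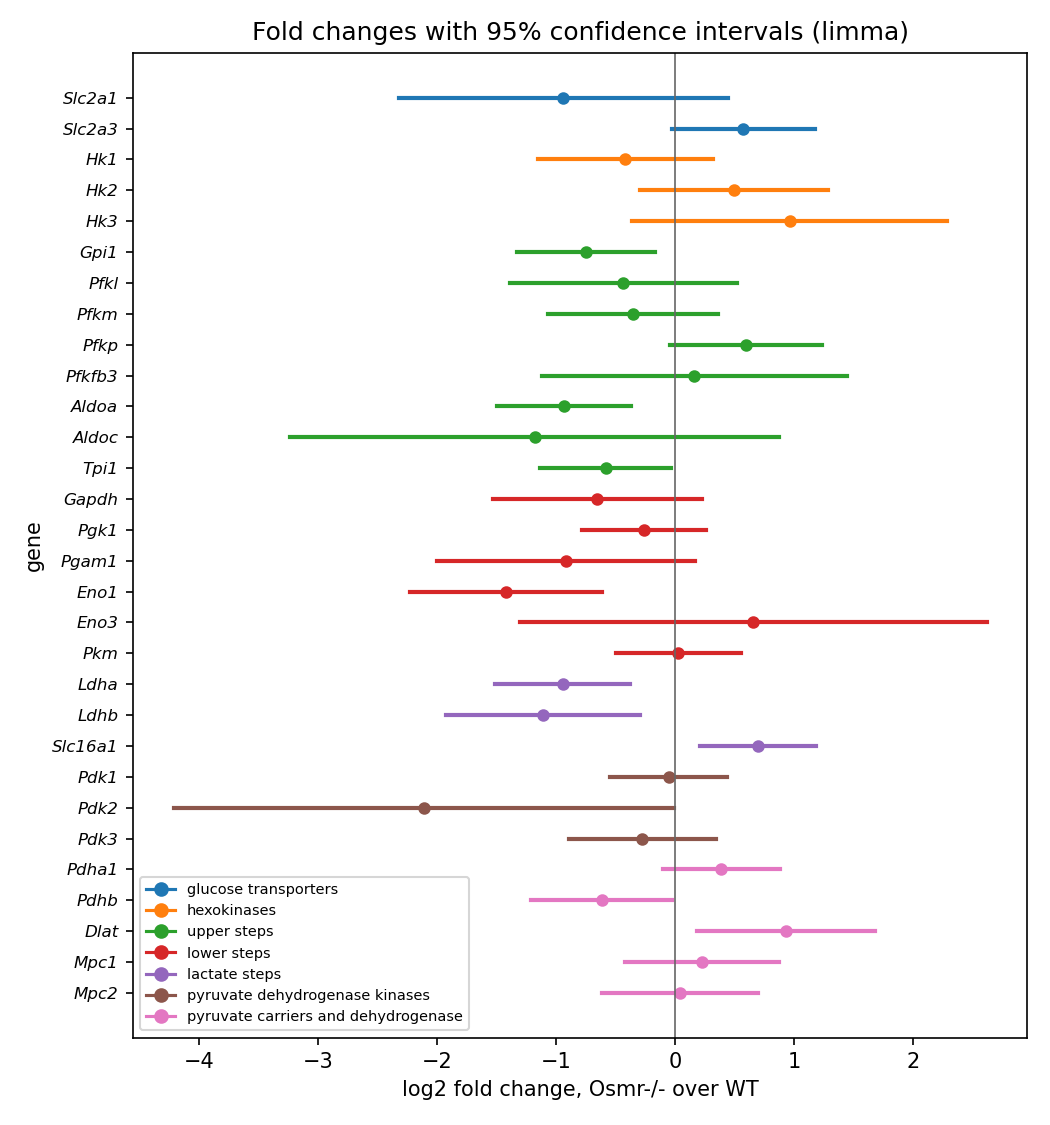
Log2 difference (Osmr-/- minus WT) of the 30 tested genes, grouped by role, on the log2(normalised count + 1) scale, with limma's 95% confidence interval as the bar. Eno1, Aldoa, Ldha, Ldhb, Gpi1 and Tpi1 lie below 0 with intervals that do not reach it, and Slc16a1 and Dlat lie above 0.

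The libraries held 9500968 to 22144976 reads counted to genes. WT replicate 1 was the deepest, and the other WT libraries held 9886151 to 13554806. The 10 markers of the stem cell gate were detected in every group at like summed levels, 19949 to 27411 normalised counts in WT and 20468 to 30699 in Osmr-/-. Osmr itself had only 13 reads over the 6 WT libraries and 4 over the 5 Osmr-/- libraries (1.60 ± 2.64 against 0.875 ± 0.856 normalised counts, SD, two-sided exact permutation p = 0.781), so that its level does not check the genotype. Nothing in these values separates mouse-to-mouse from technical spread, since each library is 1 mouse.

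The promoters of 4 genes are printed here because they hold the gene of lowest p in the trunk (Eno1) and all 3 tested genes of lactate handling: Ldha and Ldhb had lower means in Osmr-/-, as had Eno1, and Slc16a1, whose product exports lactate, had a higher one. Each is the window of 250 bases before the RefSeq gene start (GRCm38.p6), read 5′ to 3′ on the gene's strand, and none of them overlaps an annotated exon. The Ldha window lies in an intron of longer Ldha transcripts, since another annotated start lies further upstream. Capitals mark ACGTG, the core of the hypoxia response element, and GCGTG, its variant, on either strand; in the palindrome CACGTG, the E-box, ACGTG reads on both strands.
Eno1, chr4:150236458-150236707, plus strand: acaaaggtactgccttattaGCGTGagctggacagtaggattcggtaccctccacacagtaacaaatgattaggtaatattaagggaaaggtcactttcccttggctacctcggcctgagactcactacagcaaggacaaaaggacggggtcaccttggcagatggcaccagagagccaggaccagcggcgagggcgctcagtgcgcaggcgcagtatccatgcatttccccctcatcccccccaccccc
Ldha, chr7:46845554-46845803, plus strand: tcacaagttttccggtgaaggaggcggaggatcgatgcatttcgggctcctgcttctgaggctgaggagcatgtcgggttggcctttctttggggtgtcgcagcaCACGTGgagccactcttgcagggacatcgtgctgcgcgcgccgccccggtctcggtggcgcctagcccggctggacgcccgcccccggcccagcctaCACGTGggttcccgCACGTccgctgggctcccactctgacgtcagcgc
Ldhb, chr6:142507958-142508207, minus strand: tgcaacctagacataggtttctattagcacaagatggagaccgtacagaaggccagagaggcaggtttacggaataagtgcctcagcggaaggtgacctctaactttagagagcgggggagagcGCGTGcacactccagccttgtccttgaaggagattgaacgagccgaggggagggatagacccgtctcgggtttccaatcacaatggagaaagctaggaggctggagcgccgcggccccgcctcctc
Slc16a1, chr3:104638414-104638663, plus strand: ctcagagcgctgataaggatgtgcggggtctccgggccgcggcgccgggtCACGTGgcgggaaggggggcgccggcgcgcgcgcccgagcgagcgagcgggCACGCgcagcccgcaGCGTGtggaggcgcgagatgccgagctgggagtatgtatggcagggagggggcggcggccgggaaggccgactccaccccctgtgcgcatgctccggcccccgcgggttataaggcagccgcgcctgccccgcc

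The 4 windows differed in these letters. The Ldha window holds 2 copies of CACGTG and a further ACGTG, and no GCGTG. The Slc16a1 window holds 1 CACGTG and 2 copies of GCGTG. The Eno1 and Ldhb windows hold 1 GCGTG each and no ACGTG. A RefSeq window was matched for 31 of the 32 genes, all but Slc2a3. ACGTG was in 13 of these 31 windows (41.9%), against 16.6% of the 32851 promoters of that length, GCGTG in 18 (58.1%) against 28.2%, and either in 24 (77.4%) against 38.6%. CACGTG was in 4 (12.9%) against 6.02%. The base composition of the windows bears on such counts, with 67.2% G and C for Ldha, 76.4% for Slc16a1, 55.6% for Eno1 and 56.4% for Ldhb, against a median of 52.4% over all promoters. Genes with lower and with higher means thus both carried these letters, and a match is a description of sequence only.

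Glucose enters through Slc2a1 (GLUT1) and Slc2a3 (GLUT3), and neither passed the test. Values are normalised counts from here on. Slc2a3 ranged from 313 to 575 with a median of 402 in the WT libraries, and 692, 345, 776, 686 and 746 in Osmr-/- replicates 1, 2, 3, 5 and 6. Its mean was 432 ± 117 (SD, n = 6) in WT and 649 ± 174 (SD, n = 5) in Osmr-/- normalised counts, a log2 difference of 0.57 (SE 0.28, limma adjusted p = 0.300). Osmr-/- replicate 2 lay inside the WT range and the other 4 lay above it. Slc2a1 was split within the Osmr-/- group, with 15.9, 124, 16.8, 118 and 158 against WT values from 56.5 to 165 with a median of 122. Replicates 1 and 3 lay below every WT library, and the other 3 lay inside the WT range (log2 difference -0.94, SE 0.65, adjusted p = 0.463 by limma). Per kilobase of exon, Slc2a3 held 64.0% ± 9.93 (SD, n = 6) of the summed signal of this pair in WT and 78.4% ± 16.8 (SD, n = 5) in Osmr-/-, with overlapping ranges.

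The hexokinases trap glucose as glucose 6-phosphate. None of the 3 genes passed the test. Hk3 ranged from 10.1 to 161 with a median of 74.0 in WT, with the minimum in WT replicate 5, and 54.4, 175, 140.5, 99.9 and 185 in Osmr-/-. Its mean was 78.4 ± 48.8 (SD, n = 6) in WT and 131 ± 54.4 (SD, n = 5) in Osmr-/- (log2 difference 0.96, SE 0.62, limma adjusted p = 0.437), and the log2 difference was 0.46 without WT replicate 5. Hk1 and Hk2 had log2 differences of -0.42 and 0.49. Within the family the mean share of Hk1, the widely expressed form, was lower in Osmr-/-. On the per-kilobase scale Hk1 held 35.0% ± 9.72 (SD, n = 6) of the hexokinase signal in WT and 21.2% ± 5.23 (SD, n = 5) in Osmr-/-, with WT libraries at 23.7% to 46.3% and Osmr-/- libraries at 15.4% to 27.3%. These shares overlap, and they were not tested.

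The upper steps, from glucose 6-phosphate to the triose phosphates, held 3 of the 8 genes that were lower at an unadjusted p of 0.05: Gpi1, Aldoa and Tpi1. Gpi1 (chr7:34201330-34230336, minus strand of GRCm38), the isomerase that makes fructose 6-phosphate, ranged from 574 to 1419.5 with a median of 1157 in WT and 514, 585, 571, 589.9 and 696 in Osmr-/-. Its means were 1050.0 ± 366 (SD, n = 6) in WT and 591 ± 65.8 (SD, n = 5) in Osmr-/-, so that it was 1.68-fold lower (log2 difference -0.75, SE 0.27, limma adjusted p = 0.181). The 5 Osmr-/- libraries all lay below the WT mean, and WT replicates 3 and 6 lay among them.

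Aldoa (chr7:126795234-126800751, minus strand) encodes the main aldolase, which splits fructose 1,6-bisphosphate. It ranged from 1517 to 4834 with a median of 2713 in WT and 1580.2, 1418, 1369, 1666 and 1482 in Osmr-/-. The means were 3067 ± 1219.7 (SD, n = 6) in WT and 1503 ± 121 (SD, n = 5) in Osmr-/-, a 1.91-fold difference (log2 -0.93, SE 0.26, limma adjusted p = 0.121). The Osmr-/- libraries were close to each other, with an SD of 0.11 on the log2 scale, and only WT replicate 6 lay among them. Aldoa held 95.7% of the aldolase signal per kilobase in WT and 93.6% in Osmr-/-, the rest being Aldoc, whose log2 difference of -1.18 had an SE of 0.96.

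Tpi1 (chr6:124810586-124814296, minus strand), triose phosphate isomerase, ranged from 988 to 2513 with a median of 1646 in WT and 1164, 1248, 804, 1083 and 1320.3 in Osmr-/-. The means were 1749.7 ± 601 (SD, n = 6) in WT and 1124 ± 199.6 (SD, n = 5) in Osmr-/-, 1.50-fold lower (log2 difference -0.58, SE 0.26, limma adjusted p = 0.257). Again WT replicate 6 was the only WT library within the Osmr-/- range.

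Phosphofructokinase, the committed step, is a tetramer of the subunits encoded by Pfkl, Pfkm and Pfkp. Pfkp ranged from 266 to 674 with a median of 488 in WT and 737, 696, 1175, 433 and 560.1 in Osmr-/-, with means of 469.8 ± 141 (SD, n = 6) in WT and 721 ± 281 (SD, n = 5) in Osmr-/- (log2 difference 0.59, SE 0.30, limma adjusted p = 0.314). Osmr-/- replicate 3 was the highest, and replicates 5 and 6 lay inside the WT range. Pfkl and Pfkm had log2 differences of -0.44 and -0.35, and Pfkfb3, whose product makes the activator fructose 2,6-bisphosphate, of 0.16. Per kilobase, Pfkp held 24.2% ± 5.97 (SD, n = 6) of the subunit signal in WT and 39.3% ± 14.6 (SD, n = 5) in Osmr-/-. Without the correction for length it held 50.3% and 66.6%. Summed over its 8 genes, the upper part of the pathway held 7083 ± 1981 normalised counts in WT (SD, n = 6) and 4562 ± 170 in Osmr-/- (SD, n = 5). The Osmr-/- sums ran from 4337 to 4784, and WT replicate 6, at 4568, was the only WT library within them.

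**Figure D2:**
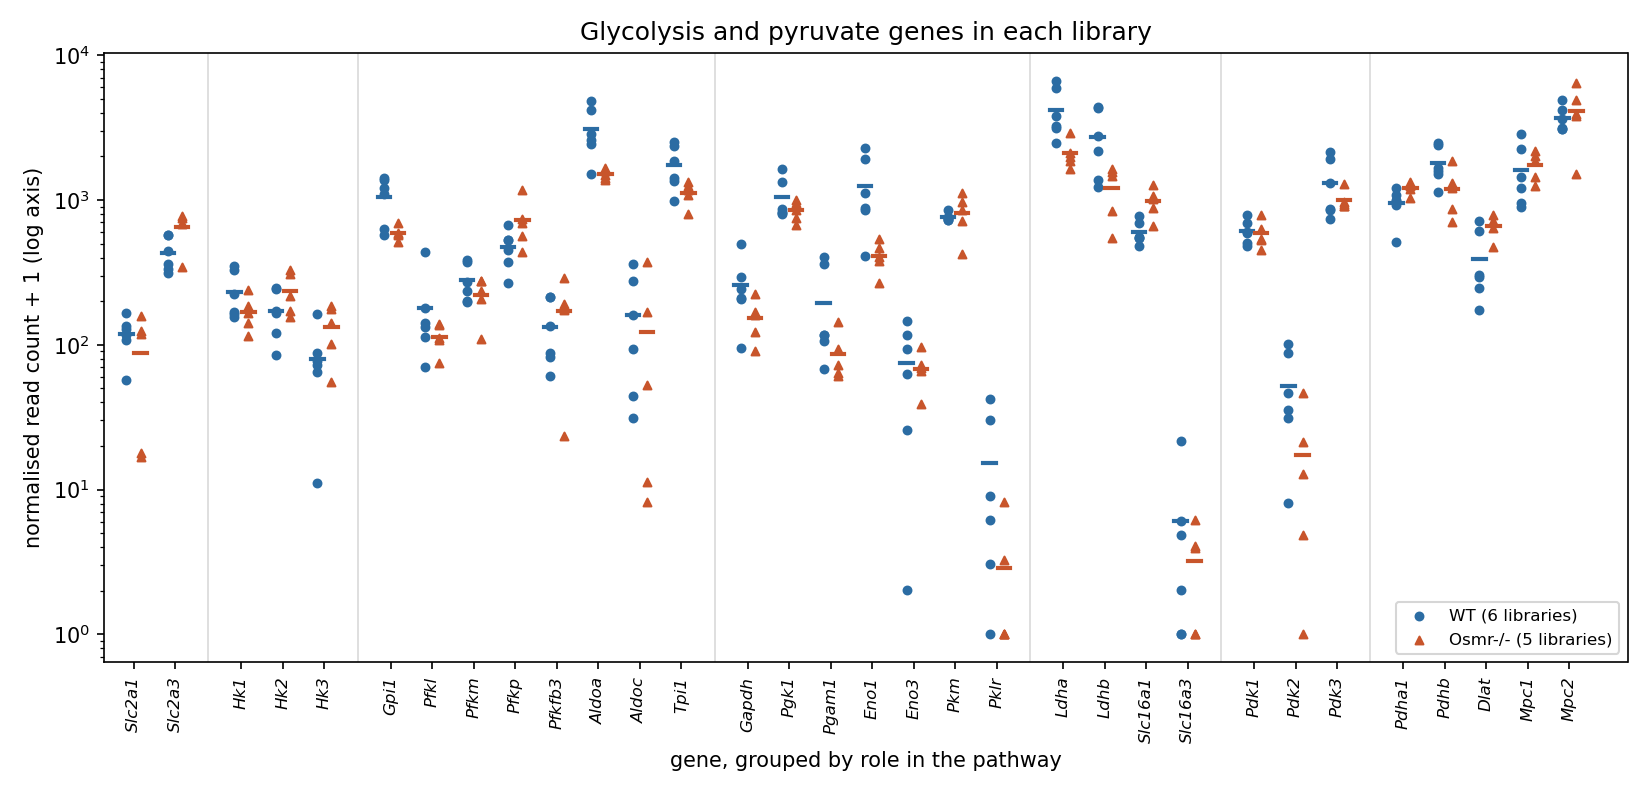
Normalised read count + 1 (log axis) of all 32 genes by role, with 1 point per library (WT as circles, Osmr-/- as triangles) and the group mean as a line. The Osmr-/- points of Aldoa lie between 1369 and 1666, at the lower end of WT, and those of Slc16a1 lie mostly above WT, while Pklr and Slc16a3 lie at the bottom of the scale.

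In the lower steps, from triose phosphate to pyruvate, Eno1 had the lowest unadjusted p of all 30 genes. Eno1 (chr4:150236721-150248879, plus strand) encodes alpha-enolase, which makes phosphoenolpyruvate. It ranged from 412 to 2273 with a median of 999.7 in WT and 535, 403, 380.2, 266 and 463 in Osmr-/-, with means of 1242 ± 707 (SD, n = 6) in WT and 409 ± 100.1 (SD, n = 5) in Osmr-/-. That is 2.68-fold lower (log2 difference -1.42, SE 0.38, 95% interval -2.23 to -0.62, limma adjusted p = 0.107). Of the WT libraries, only replicate 6 lay within the Osmr-/- range. Leaving out 1 library at a time gave log2 differences of -1.70 to -1.21.

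The Eno1 share of the enolase signal per kilobase was 66.5% ± 4.17 in Osmr-/- (SD, n = 5, range 61.0% to 71.8%) and 82.1% ± 11.7 in WT (SD, n = 6, range 71.1% to 99.9%), with the ranges just overlapping and no test; the rest is Eno3, the muscle enolase. Gapdh and Pgam1 had log2 differences of -0.65 (adjusted p = 0.420, limma) and -0.92 (adjusted p = 0.363, limma), Pgk1 of -0.26 and Pkm of 0.03. Pkm, the pyruvate kinase that held 97.4% of the pyruvate kinase signal per kilobase in WT and 99.7% in Osmr-/-, had means of 761 ± 49.1 (SD, n = 6) in WT and 813 ± 260.0 (SD, n = 5) in Osmr-/-, so that its WT spread was small where that of Eno1 was large. The 95% interval of the Pkm log2 difference ran from -0.50 to 0.55. Pklr, the liver and red cell pyruvate kinase, was under the count minimum and not tested, with 14.3 ± 16.8 (SD, n = 6) normalised counts in WT and 1.89 ± 3.13 (SD, n = 5) in Osmr-/-. Summed, the 7 lower-step genes held 3588 ± 1226 normalised counts in WT (SD, n = 6) and 2375 ± 221 in Osmr-/- (SD, n = 5).

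Of the 4 genes of lactate production and export, Ldha and Ldhb were lower and Slc16a1 higher at an unadjusted p of 0.05, and Slc16a3 was not tested. Ldha (chr7:46841475-46855627, plus strand) and Ldhb (chr6:142490249-142507957, minus strand) encode the subunits of the lactate dehydrogenase tetramer; the first favours making lactate from pyruvate and the second the reverse. Ldha ranged from 2483 to 6662 with a median of 3525 in WT and 2905, 1985, 1855, 1635 and 2094 in Osmr-/-, with means of 4212 ± 1681 (SD, n = 6) in WT and 2095 ± 484 (SD, n = 5) in Osmr-/-. It was 1.92-fold lower (log2 difference -0.94, SE 0.27, limma adjusted p = 0.121), and WT replicate 6 was again the only WT library within the Osmr-/- range.

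Ldhb ranged from 1233 to 4399.8 with a median of 2464 in WT and 1465, 1624, 833, 1565 and 547 in Osmr-/-. With means of 2709 ± 1397 (SD, n = 6) in WT and 1207 ± 486 (SD, n = 5) in Osmr-/- it was 2.16-fold lower (log2 difference -1.11, SE 0.38, limma adjusted p = 0.165). WT replicates 4 and 6 lay within the Osmr-/- range. The balance of the 2 subunits overlapped between genotypes. Per kilobase, Ldha held 43.9% ± 7.75 (SD, n = 6) in WT and 46.8% ± 12.5 (SD, n = 5) in Osmr-/-, and without the correction for length it held 62.0% and 64.2%.

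Slc16a1 (chr3:104638668-104658462, plus strand) encodes the monocarboxylate transporter MCT1, which moves lactate with a proton across the plasma membrane. It ranged from 482 to 776 with a median of 547 in WT and 665, 879.8, 1008, 1059 and 1276 in Osmr-/-. The means were 597 ± 111 (SD, n = 6) in WT and 978 ± 226 (SD, n = 5) in Osmr-/-, 1.62-fold higher (log2 difference 0.70, SE 0.23, 95% interval 0.21 to 1.19, limma adjusted p = 0.152). Osmr-/- replicates 2, 3, 5 and 6 lay above every WT library, replicate 1 lay below the 2 highest, and leaving out 1 library at a time gave log2 differences of 0.59 to 0.83. The other export gene, Slc16a3 (MCT4), was under the count minimum, with 5.11 ± 7.91 (SD, n = 6) in WT and 2.23 ± 2.22 (SD, n = 5) in Osmr-/-, and Slc16a1 held 99.4% of the signal of this pair per kilobase in WT and 99.8% in Osmr-/-.

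Of the 5 genes at the entry to the mitochondrion, at an unadjusted p of 0.05 Dlat was higher and Pdhb lower. Dlat (chr9:50634633-50659780, minus strand) encodes the E2 core of the pyruvate dehydrogenase complex. It ranged from 172 to 713 with a median of 297 in WT and 705, 641, 717, 471 and 789 in Osmr-/-, with means of 389 ± 218 (SD, n = 6) in WT and 665 ± 120.1 (SD, n = 5) in Osmr-/-, 1.91-fold higher (log2 difference 0.93, SE 0.35, limma adjusted p = 0.195). WT replicates 3 and 6, at 611 and 713, lay among the Osmr-/- libraries, and the other 4 WT libraries lay below all of them.

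The E1 subunits pointed in different directions. Pdha1, the alpha subunit, ranged from 515 to 1209 with a median of 997 in WT and 1325, 1035, 1246, 1272 and 1181 in Osmr-/- (means 953 ± 235 (SD, n = 6) in WT and 1212 ± 112 (SD, n = 5) in Osmr-/-, log2 difference 0.39, SE 0.23, limma adjusted p = 0.395). The lowest value was in WT replicate 1, and without that library the log2 difference was 0.22. Pdhb, the beta subunit, had a log2 difference of -0.62 (SE 0.28, unadjusted p = 0.041, adjusted p = 0.259, limma). The carrier genes Mpc1 and Mpc2 had log2 differences of 0.23 and 0.04, with 95% intervals of -0.42 to 0.87 and -0.61 to 0.69. Summed, these 5 genes held 8410 ± 1619 normalised counts in WT (SD, n = 6) and 8918 ± 2195 in Osmr-/- (SD, n = 5).

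Of the kinases that switch the complex off, Pdk3 held most of the signal per kilobase, 82.9% in WT and 82.6% in Osmr-/-, and Pdk1, the form known as a HIF1A target, held 14.1% and 16.3%. Their log2 differences were -0.28 and -0.06, with 95% intervals of -0.89 to 0.34 and -0.55 to 0.44. Pdk2 ranged from 7.05 to 100.1 with a median of 39.9 in WT and 20.4, 0, 3.87, 45.3 and 11.7 in Osmr-/-, a log2 difference of -2.11 on low counts (SE 0.99, unadjusted p = 0.049, adjusted p = 0.275, limma).

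**Figure D3:**
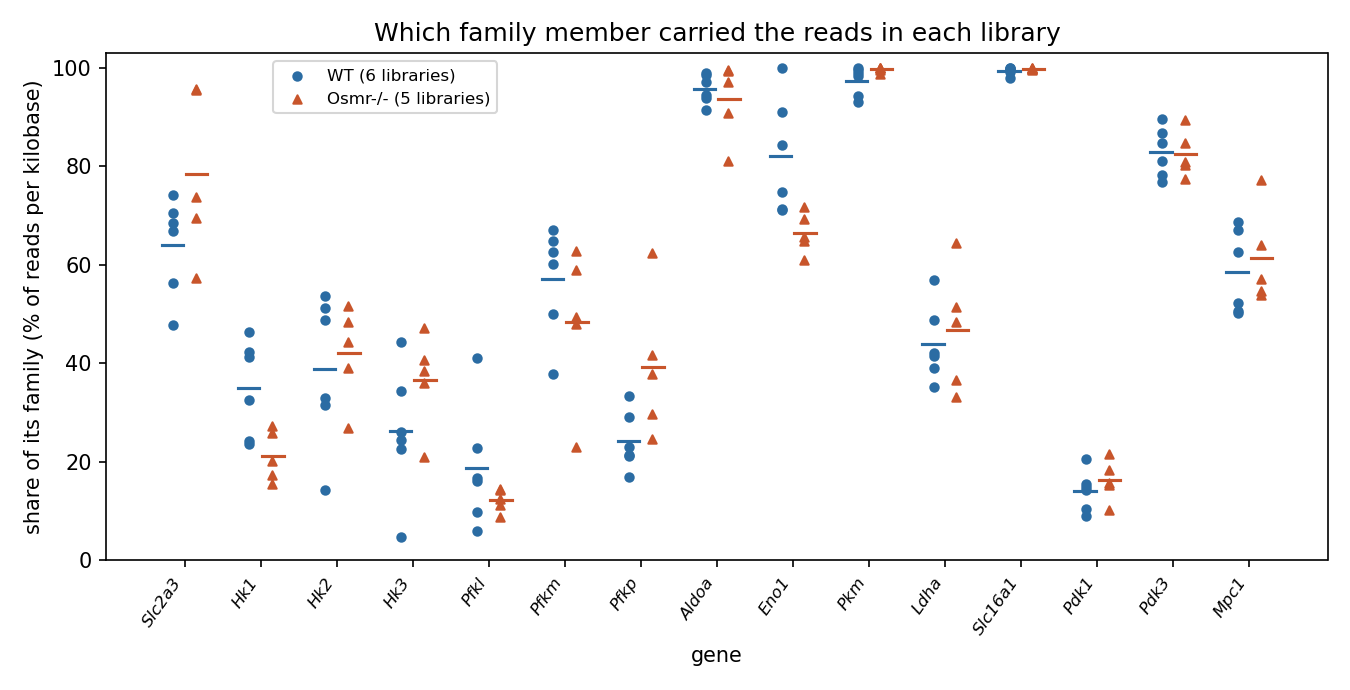
Share (percent) of its family's signal per kilobase of exon held by each of 15 genes, with 1 point per library (WT as circles, Osmr-/- as triangles) and the group mean as a line. Pkm and Slc16a1 hold nearly all of their families in both genotypes, and the Hk1 and Eno1 shares have lower means in Osmr-/-.

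The per-kilobase scale divides by the summed length of all annotated exons of a gene, which can exceed the length of its transcripts. Levels can therefore be set side by side between genes only roughly. On this scale the order of the highest levels differed between the genotypes. In WT the lactate dehydrogenase and aldolase transcripts had the highest means. Ldhb stood at 1725 ± 889.6 normalised counts per kilobase, Ldha at 1272 ± 508 and Aldoa at 1054 ± 419 (SD, n = 6). In Osmr-/- these levels were 769 ± 309, 633 ± 146 and 516 ± 41.4 (SD, n = 5), while Mpc1 had the highest mean, 838 ± 186, and Mpc2, at 559 ± 243, had a higher mean than Aldoa. Neighbours in these orders did not differ beyond their spreads. The order of Mpc1 and Mpc2 rests on exon lengths of 2.082 and 7.344 kilobases. Without them Mpc2 had the higher mean in Osmr-/-, 4108 against 1745 normalised counts. The lowest levels of all 32 genes were those of Slc16a3, 0.961 ± 1.49 in WT, and Pklr, 4.41 ± 5.20 in WT.

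Some of the 32 genes share sequence with other genes, so their counts are uncertain. Gapdh has 74 other annotated genes, 69 of them pseudogenes, that match at least 95% of its bases over at least 50% of its coding sequence, and 68 of the 74 are in the table; these copies held 22.2% of the normalised counts of Gapdh and its copies together. Mpc1 has 1 such copy, a pseudogene with 28.1% of the pair's counts. Gpi1, Pgam1, Pkm, Ldhb and Pdhb have 1 each, Pgk1 and Ldha have 2, and Eno1 has 3. The labels do not say how reads were split between such copies.

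The 6 enzymes named above, the genes of lowest p among those lower in Osmr-/-, shared their extreme WT libraries but not the full order. Their summed normalised counts were 22029.8, 19989, 11284, 11545, 12123 and 7207 in WT replicates 1 to 6, and 8164, 7263, 5811, 6804 and 6602 in Osmr-/- replicates 1, 2, 3, 5 and 6. For each of the 6 genes the highest WT library was replicate 1 or 2, the lowest was replicate 6, and every Osmr-/- library was below the WT mean. The last of these follows largely from their choice by p in these same values. It held for 13 of the 18 tested genes with a log2 difference below 0. Over all 30 tested genes, WT replicate 1 was the highest WT library for 11, against 17.9% of all genes tested, and WT replicate 6 the lowest for 12, against 18.7%. No gene of the 30 had groups that do not overlap, a separation seen for 2.52% of all genes (1.42% lower). Without WT replicate 6, Aldoa, Tpi1, Eno1 and Ldha had every Osmr-/- library below every WT library, 4 of 30 genes against 3.31% of all genes for that direction. Since WT replicate 6 was the only WT library within the Osmr-/- range of these 4 genes, this separation follows from leaving it out. The share over all genes was not chosen that way, so it is no fair background. Without WT replicate 6 limma called Eno1 (log2 difference -1.70, adjusted p = 0.0373) and Aldoa (-1.12, adjusted p = 0.0405) lower, 2 of 30 against 0.692% of all genes. Both calls depend on leaving out the same library, so they add no support of their own.

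**Figure D4:**
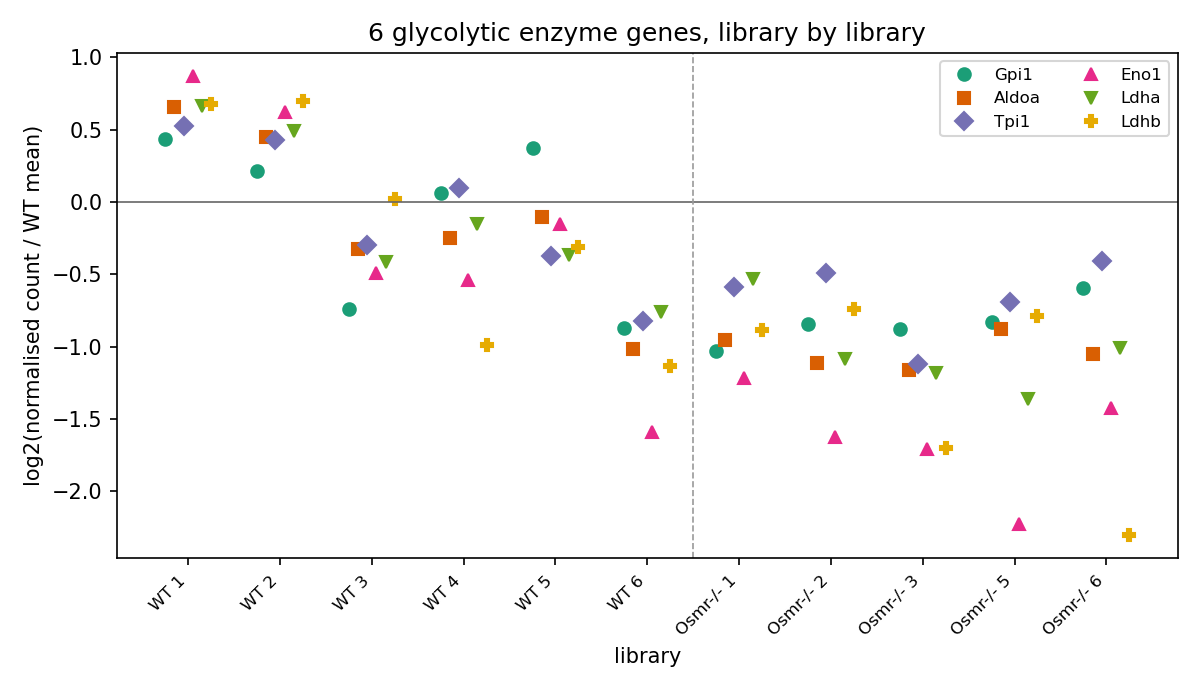
Log2 of the normalised count over the WT mean (vertical axis) for Gpi1, Aldoa, Tpi1, Eno1, Ldha and Ldhb in each of the 11 libraries (horizontal axis), 1 symbol per gene. WT replicates 1 and 2 lie above 0 for all 6 genes, and WT replicate 6 lies below 0 at the level of the 5 Osmr-/- libraries.

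Markers of other blood cells also differed between libraries. The summed normalised counts of 11 erythroid genes were 13715, 11551, 27469.6, 3543, 4401 and 4780.2 in WT replicates 1 to 6 and 1153 to 3402 in Osmr-/-, so the groups did not overlap, by a margin of 3543 against 3402 (10 of the 11 genes passed the count minimum). Car1 made up much of this sum, with 22648 in WT replicate 3, and Car1 itself overlapped between groups, with 1711 in WT replicate 4 and 2601 in Osmr-/- replicate 2. The other 10 erythroid genes summed to 1744 to 4822 in WT and 695 to 1294 in Osmr-/-. The sum of 4 monocyte and macrophage genes, 3 of which passed the count minimum and most of which was Lyz2, was 13814 and 14275 in WT replicates 1 and 2, 5485 to 9097 in the other WT libraries and 3914 to 6551 in Osmr-/-. The erythroid sum was highest in WT replicate 3, whose sum of the 6 enzymes, 11284, was the lowest of WT but for replicate 6. Granulocyte markers (9 genes, with Ctsg at 0 in every library) summed to 3412 to 5510 in WT and 4689 to 29112 in Osmr-/-, where replicate 3 stood apart with 10779.9 normalised counts of S100a8. In the other libraries most of this sum was Prtn3, with means of 3861 in WT and 4831 in Osmr-/-. Mpo went the other way, with means of 53.2 in WT and 18.9 in Osmr-/-. The 6 B cell genes, 3 of them past the count minimum, summed to 1725 and 1384 in WT replicates 1 and 2, 569 to 1069 in the other WT libraries and 429 to 691 in Osmr-/-. Of the 5 T cell genes Cd3g was at 0 in every library. The part of these cell types in the lower enzyme counts was not tested.

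The first principal component of all tested genes, with 21.2% of the variance, put WT replicates 1 and 2 lowest, at -138 and -54.9. WT replicates 3, 4 and 5 lay at -22.9, -24.4 and -18.0, WT replicate 6 at 13.5 and the Osmr-/- libraries at 19.0 to 101. The link of this order over all genes with the enzyme counts was not tested. The second component held 16.5% of the variance. On it the libraries with label numbers 1 to 3 and those with numbers 4 to 6 lay apart in both genotypes. The labels name no batch. The contrast was therefore recomputed in each set. Of the 30 genes, 18 had the same sign in both sets, 12 lower and 6 higher. The log2 difference of Eno1 was -1.85 in the lower-numbered set and -1.06 in the higher-numbered one, and in the same order Aldoa had -1.34 and -0.51, Ldha -1.18 and -0.76, and Ldhb -1.57 and -0.74. Gpi1 had -0.89 and -0.57, and Tpi1 -0.95 and -0.18. Slc16a1 had 0.68 and 0.81, and Dlat 1.11 and 0.72. Slc2a1 and Pgam1 turned over, from -2.05 to 0.58 and from -1.97 to 0.30, as did Pfkp, from 1.18 to -0.14. At an unadjusted p of 0.05, numbers 4 to 6 alone gave 2 lower genes, against 5.94% of all genes, and 1 higher, against 4.42%. The difference between the sets was not tested. With the set as a covariate, limma called 3 genes lower, Eno1 (adjusted p = 0.0401), Ldha (adjusted p = 0.0408) and Aldoa (adjusted p = 0.0495), against 1.53% of all genes, and 0 higher against 0.996%. Slc16a1 had an adjusted p of 0.0552 and Ldhb of 0.0545 in that limma fit. The sets were drawn from a split seen in these same values, so the results of that fit depend on this choice.

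**Figure D5:**
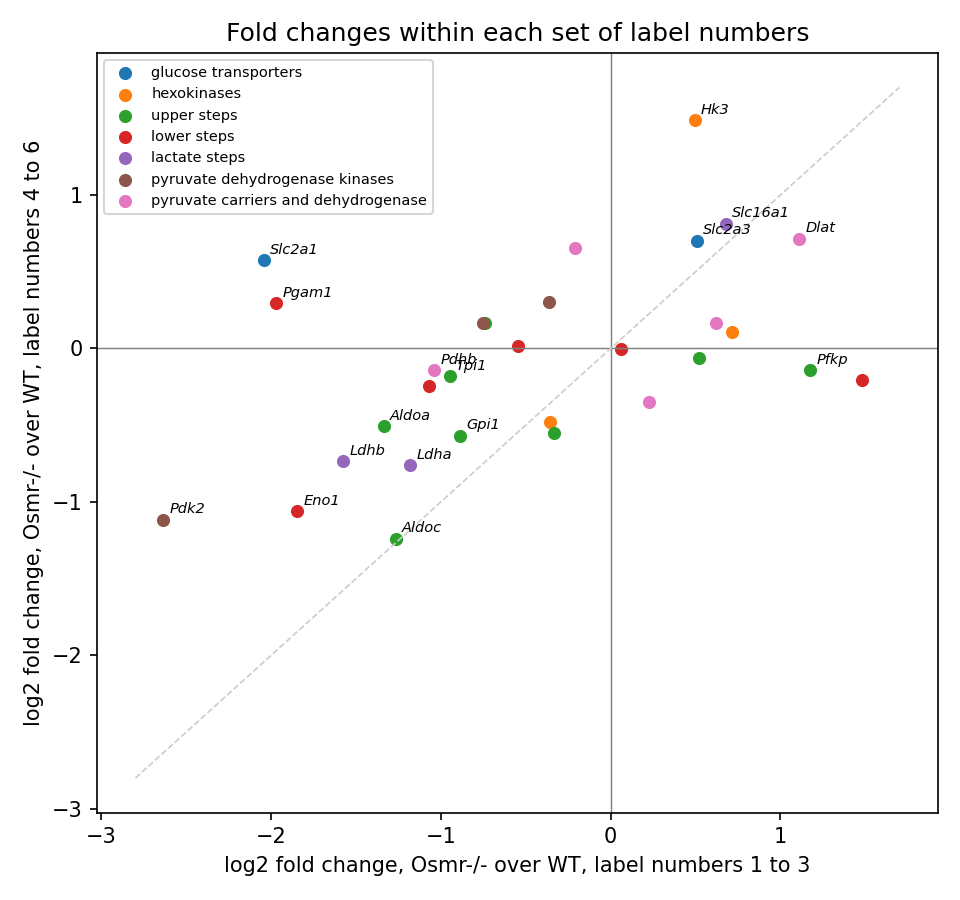
Log2 difference (Osmr-/- minus WT) in label numbers 1 to 3 (horizontal axis) against that in label numbers 4 to 6 (vertical axis) for the 30 tested genes, 1 point per gene. Eno1, Aldoa, Ldha, Ldhb and Gpi1 lie below 0 on both axes and Slc16a1 and Dlat above 0 on both, whereas Slc2a1 and Pgam1 change side.

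Genes around the pathway gave the surroundings, and in 6 lists 0 genes passed an adjusted p of 0.05 with limma or edgeR, which tested 87 of them, while DESeq2 on the recovered reads called 5 of the 73 it gave an adjusted p lower (6.85%, against 3.15% of all genes) and 0 higher (against 1.39%). The lists were compared with all tested genes only by their counts and medians (18% of all genes at an unadjusted p of 0.05, median log2 difference -0.05). In the citric acid cycle, which receives the acetyl-CoA, all 19 genes were tested, 4 were lower and 0 higher at an unadjusted p of 0.05, 15 were below 0 and the median was -0.48. Its lowest p was that of Mdh2, mitochondrial malate dehydrogenase, at 5114 ± 2253 normalised counts in WT (SD, n = 6) and 1949.9 ± 459 in Osmr-/- (SD, n = 5), a log2 difference of -1.30 (limma adjusted p = 0.0807). In the authors' deposited table Mdh2 passed with -1.25 (adjusted p = 0.0025). Suclg1, a succinyl-CoA ligase subunit, and Sdhc, a subunit of succinate dehydrogenase, had log2 differences of -1.05 and -0.84, and Suclg1 passed in the authors' deposited table (adjusted p = 0.0274).

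The pentose phosphate pathway branches off at glucose 6-phosphate. Of its 10 genes, all tested, 3 were lower and 2 higher at an unadjusted p of 0.05, and the median log2 difference was -0.34. Transketolase (Tkt) and transaldolase (Taldo1), which return sugars to glycolysis, had log2 differences of -1.32 (limma adjusted p = 0.138) and -1.10 (limma adjusted p = 0.142), and Rpe had 0.69. Taldo1 passed in the authors' deposited table (adjusted p = 0.0247). Further glycolysis genes outside the 32 (13 tested of 27 listed, median -0.13) had 2 lower and 0 higher, with Bsg, the chaperone that carries MCT1 to the membrane, at -0.996, Bpgm at -1.48 and Galm at -0.84. Bsg passed as lower in the authors' deposited table (adjusted p = 0.0481), where its partner Slc16a1 was higher. Other pyruvate genes (11 tested of 16, median -0.34) had 1 lower and 0 higher, with Pdpr at -2.27, Me2 at -0.73 and Gpt2 at 1.36. Glycogen genes (14 tested of 15, median 0.05) had 1 lower and 1 higher, with Pygm at -2.68, Phkb at 0.68 and Gbe1 at 0.61.

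Among 21 regulators of the pathway 20 were tested, with 4 higher and 2 lower at an unadjusted p of 0.05 and a median of 0.02. Hif1a, the oxygen-regulated factor that switches on glycolytic genes, had 754 ± 194 normalised counts in WT (SD, n = 6) and 1266 ± 238 in Osmr-/- (SD, n = 5), a log2 difference of 0.78 (limma adjusted p = 0.149). Meis1, which is known to drive Hif1a transcription in hematopoietic stem cells, had a log2 difference of 0.53 (limma adjusted p = 0.154) and passed as higher in the authors' deposited table (adjusted p = 0.0243). Sirt3, a mitochondrial deacetylase, had -0.74 (limma adjusted p = 0.149) and passed as lower in the authors' deposited table (adjusted p = 0.0373). Hif1a and Meis1 thus had higher mean transcript levels in Osmr-/-, where Eno1, Aldoa and Ldha had lower ones. A link between them was not tested.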

How the data were processed

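PolyA+ RNA of 1000 sorted cells per mouse was amplified with the SMART-Seq v4 kit (13 to 18 cycles of cDNA PCR) and made into libraries with Nextera XT (12 cycles), per the labels' protocols. The submitters' processing notes name Trimmomatic 0.36.6, FastQC 0.72, HISAT2 2.1.0, HTSeq 0.9.1, DESeq2 (2.11.40.6) and the mm10 build. Neither names the annotation or the strand setting, so antisense reads may be included. The main values are the authors' normalised counts, a signal that the authors made by dividing gene counts by DESeq2 size factors. The authors also deposited rlog and VST values on a log2 scale, and a DESeq2 table with log2 fold changes, a Wald statistic (a score), p-values and adjusted p-values; its fold change is WT over Osmr-/-, so its sign was turned here.

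The normalised counts were multiples of each library's step to within 1.4e-09 of a whole read, which returned the reads. Libraries held 9500968 to 22144976 reads. PCR duplicates have no molecular identifier, so read counts are not counts of molecules. Genes with at least 10 normalised counts in at least 5 libraries were tested on log2(normalised count + 1) with limma 3.58.1 (R 4.3.3). The tests were two-sided, with trended variance, genotype only, Benjamini-Hochberg over 13358 genes and a threshold of 0.05. The added 1 draws fold changes of low genes toward 0, but single low libraries can widen them or turn their sign. Eno3 was 0.66 in this fit, though its mean was 73.6 in WT and 67.4 in Osmr-/-, with 1.04 in WT replicate 1. Pdk2 was -2.11 in this fit and -0.86 in the authors' deposited table. Deposited fold changes were also nearer 0 for genes with high counts. Eno1, Aldoa, Ldha and Ldhb were all nearer 0 there than with DESeq2 on the recovered reads, Eno1 at -1.36 against -1.60. Sizes in the deposited table are therefore not directly comparable with the others here. The reason for these gaps was not tested. DESeq2 1.42.0 and edgeR 4.0.16 on recovered reads, other scalings, filters and pseudocounts, a replicate block, the label-number set and leaving out each library were alternatives. Scripts were tested on simulated data. Exon lengths and positions came from GENCODE M21 (GRCm38), copies from BLAST 2.17.0 and promoters from RefSeq GRCm38.p6.

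The genes and the lists around them were chosen with earlier results of these data known. Values by library (WT as lowest, median and highest) were given for genes past the threshold, genes without overlap, and the lowest p in each direction up to 6; Slc2a1 and Pdk2 were added after their values were seen, and up to 3 genes of lowest p were named from each list. Of the listed genes, Tigar, Epb42 and Adgre1 were not matched by symbol. Replicate numbers follow the labels. The p-values measure the spread between libraries of single mice, in which mouse-to-mouse and technical spread are mixed.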

Additional observations from a re-analysis of the deposited data

Results flagged for a closer look

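In 6 of 60 groups of libraries tested, 1 gene's highest or lowest library stood apart from the other libraries of its genotype (Dixon's 95% critical value); chance flags about 1 in 20 groups. In Osmr-/- replicate 2, Slc2a3 was at 345 normalised counts with the nearest library at 686, and Pfkfb3 was at 22.5 with the nearest at 172. Hk3 was at 10.1 in WT replicate 5, with the nearest at 64.1. Pdha1 was at 515 in WT replicate 1, with the nearest at 928. Pkm was at 857 in WT replicate 4, with the nearest at 766, and Pdk3 was at 1290 in Osmr-/- replicate 3, with the nearest at 961. No library held more than 2 of these 6 values.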

How the results depend on the processing

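Of 809 comparisons of the log2 difference of a single gene with its value in an alternative, 770 kept direction and side of the threshold, 9 newly passed and 30 changed sign. Of the 6 genes of lowest p in each direction, Pfkp alone changed sign, in label numbers 4 to 6 only. Against the 0 genes lower at an adjusted p of 0.05, DESeq2 gave 4, the set covariate 3, and leaving out 1 library 0 to 2. Against 8 lower and 2 higher at an unadjusted p, label numbers 4 to 6 alone gave 2 and 1, and leaving out 1 library gave 5 to 8 and 2 to 4. Of the 87 other pathway genes (0 lower), quantile scaling gave 1 lower (0.314% of all genes), DESeq2 5 of 73 (3.15%), the set covariate 4 (1.53%), and leaving out 1 library 0 to 3 (0.692% without WT replicate 6). The cause was not tested, though the sets hold fewer libraries.

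Of the values that changed sign, Mpc2 was -0.10 with quantile scaling, -0.030 with the set covariate and -0.35 in numbers 4 to 6; Eno3 was -0.13 with edgeR, -0.12 with DESeq2 and -0.21 in numbers 4 to 6; Mpc1 was -0.21 in numbers 1 to 3. In numbers 4 to 6, Slc2a1 was 0.58, Pfkm 0.17, Pfkp -0.14, Pfkfb3 -0.060, Pgk1 0.016, Pgam1 0.30, Pkm -0.0041, Pdk1 0.31 and Pdk3 0.16. Leaving out 1 library gave -0.22 to 1.02 for Eno3, -0.16 to 0.37 for Mpc2, -0.17 to 0.031 for Pdk1, -0.12 to 0.78 for Pfkfb3 and -0.10 to 0.24 for Pkm. Without length correction, mean shares were 21.8% for Slc2a1 in WT, 47.4% and 31.8% for Hk1 (WT, Osmr-/-), 85.9% for Eno1 in Osmr-/-, 62.0% and 64.2% for Ldha, 32.8% and 36.7% for Pdk1, and 29.3% and 32.05% for Mpc1.

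The replicate block gave 0 genes lower and 0 higher at an adjusted p of 0.05, with Mpc2 at -0.0052. The labels share only numbers: same-numbered libraries had correlations of their deviations of 0.020 to 0.099, and only Osmr-/- replicate 3 correlated best with its own number.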
